A study of Mus musculus with 2 samples.

Results

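The cytosolic ribosomal protein genes encode the proteins of the ribosome that translates nuclear-encoded messages. They were taken from the gene list of the expression matrix as every symbol made of Rpl or Rps and a digit, together with Rpsa, Rplp0, Rplp1 and Rplp2. Symbols ending in -ps with a number, 8 in all, and 10 Rps6k kinase genes were left out. The rule gave 87 of 31253 genes. Of these, 46 encode proteins of the large subunit and 31 of the small subunit. The other 10 carry a similar symbol without being standard subunit genes: Rpl3l, Rpl10l, Rpl22l1, Rpl36al, Rpl39l, Rps27l, Rps27rt, Rpl7l1, Rps19bp1 and Rps23rg1.

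The study measured single cells of duodenal crypts from wild-type mice in groups labelled ES and NT, letters that the labels do not spell out; the series title speaks of chronic stress. Strain, sex and age are not given in the sources used here. Each group was a pool of crypts from 5 animals and 1 library, so the mice are not told apart and there are no replicates. Barcode endings 2 and 1 were read as library numbers. Which number is ES and which NT cannot be read from the labels, and so values are given for library 2 and library 1, with no direction between the treatments and no p-value. A ratio of library 2 over library 1 compares these pools only.

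A ribosome holds about equal numbers of most of its proteins, each bound to ribosomal RNA or to its neighbours. Ribosomal protein messages are among the most abundant of a dividing cell, and most begin with a cytosine followed by a run of pyrimidines, the 5′ terminal oligopyrimidine tract, through which the kinase complex mTORC1 and the RNA-binding protein Larp1 control their translation. In the crypt, stem cells at the base divide and give rise to progenitors, which mature into absorptive enterocytes or into goblet, Paneth, enteroendocrine and tuft cells.

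Start sites of 5 standard subunit genes and 3 like-named genes are given as 30 bases, 15 before and 15 from the annotated start onwards, on the transcribed strand (RefSeq, GRCm38.p6). Capitals mark CTTTCC, a run of the kind found in terminal oligopyrimidine tracts, chosen after these windows had been read. Rpl35, Rpl28 and Rps9 stand for the subunit genes with and without the run. Rpl38 is given because it stood among the members nearest their stem-like level in enterocyte- and lymphocyte-like cells, Rps27 and Rps27rt because the second is a near-identical copy of the first, and Rps27l and Rpl22l1 because they are the most abundant like-named genes. For Rps27l it is the first of its 2 annotated starts in the table.
Rpl35, chr2:39005117-39005146, minus strand: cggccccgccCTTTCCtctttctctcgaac
Rps9, chr7:3704026-3704055, plus strand: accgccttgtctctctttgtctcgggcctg
Rpl28, chr7:4792950-4792979, plus strand: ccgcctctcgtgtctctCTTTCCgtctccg
Rpl38, chr11:114668565-114668594, plus strand: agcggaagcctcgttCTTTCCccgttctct
Rps27, chr3:90213634-90213663, minus strand: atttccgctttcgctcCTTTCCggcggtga
Rps27rt, chr9:114982725-114982754, minus strand: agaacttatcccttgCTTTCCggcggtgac
Rps27l, chr9:66946071-66946100, plus strand: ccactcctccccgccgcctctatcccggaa
Rpl22l1, chr3:28805493-28805522, plus strand: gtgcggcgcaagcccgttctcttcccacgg

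The promoter table held 67 of the 87 genes, with 79 start sites. CTTTCC, read on the transcribed strand in the 100 bases around the start, was present at 30.4% of these start sites, against 4.69% of all 32851 in the table. The run was chosen from printed windows that are among these start sites, so the 30.4% is no independent test. CGGAAG, the core of sites bound by ETS factors, was found on either strand of the 300-base promoter at 59.5% of the members' start sites, against 16.9% of all. Neither motif contains the other on either strand. A match describes the sequence and is not a bound site. The windows of Rps27 and Rps27rt share CTTTCC and the printed bases after it, while those of Rps27l, Rpl22l1 and Rps9 hold no CTTTCC.

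The 2 libraries held 6446 and 6310 barcodes, libraries 2 and 1 in that order, with 54877667 and 54316199 UMIs (molecular barcodes that count captured RNA molecules). Cells needed 500 detected genes and no more than 25% mitochondrial UMIs, which left 3727 in library 2 and 4057 in library 1, with median depths of 11800 and 10854 UMIs. Removed barcodes had a lower ribosomal protein share, with medians of 4.88% in library 2 and 6.37% in library 1, against 9.42% and 10.5% in the kept cells. The libraries shared 40 barcode sequences, of which 13 were kept in both. Their paired profiles had a median correlation of 0.124 on log counts.

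Cells were put in classes by the UMIs of marker lists per 10000 UMIs. A class is a range of such a score and not a proven cell type. In each class 4 to 7 of the 10 genes with the largest fold over the other cells were its own markers and none was another class's. The same markers set the classes, so this outcome was largely fixed in advance and is no independent check of them. Library 2 gave 548 stem-like, 527 cycling progenitor-like, 495 enterocyte-like, 538 goblet-like, 170 Paneth-like, 82 enteroendocrine-like, 55 tuft-like and 220 lymphocyte-like cells. Library 1 gave 735, 815, 478, 390, 167, 64, 22 and 270 in the same classes. Between 0 and 164 cells of a lineage class and library scored at most 25% above the gate, the most of them stem-like cells of library 1. Cells over more than 1 lineage gate, 50 in library 2 and 51 in library 1, were set aside. Unassigned cells, which met the rule of no class, were the largest group. They numbered 1042 (28.0% of kept cells) in library 2 and 1065 (26.3%) in library 1. Their ribosomal protein shares were 10.2% and 11.6% of UMIs.

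Ribosomal protein genes gave 9559743 of 94932318 UMIs of the kept cells, or 10.1%, and the 77 subunit genes held 99.3% of that. UMIs count 3′ ends and were not divided by gene length. The subunit genes had a median of 100750 UMIs, and the 10 highest held 27.6% of their sum. Rps26 was the highest at 3737 CPM (UMIs per 1000000 UMIs) in library 2 and 4377 CPM in library 1. Rps12 followed with 3242 and 3839 CPM, and then Rplp1, an acidic protein of the ribosome's P stalk, with 2800 and 3334 CPM. Rpl17 had 2517 CPM in library 2 and 2852 CPM in library 1, and Rpl41, the smallest ribosomal protein, had 2362 and 2573 CPM. These 5 genes were lower in library 2 than in library 1, as was the summed share of all members (9.31% of UMIs in library 2, 10.8% in library 1).

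At the low end stood Rps10 with 6.51 CPM in library 2 and 6.41 CPM in library 1, Rpl23a with 24.9 and 25.4 CPM, and Rpl13a with 135 and 168 CPM. Each of these 3 subunit genes has at least 1 gene in the mouse annotation whose last bases are near-identical (at least 97% identity over at least 90 of the last 150 bases), so that reads could be split or dropped and their levels are uncertain. Such a near-identical gene exists for 58 of the 87 members, and 14 have one in the matrix. The like-named genes were lower than most subunit genes. Rps27l had 350 CPM in library 2 and 353 CPM in library 1, and Rpl22l1 had 176 and 187 CPM, both above Rpl13a. Rps23rg1 had 281 UMIs in all, Rpl39l 9, Rpl3l, a paralog of skeletal muscle and heart, 6, and Rpl10l, a testis paralog, 0, which allows up to 0.0316 CPM from a floor of 3 counts. Intervals and floors here cover counting error only.

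Stem-like cells gave the largest share of their UMIs to ribosomal protein genes, and the mature classes gave less in both libraries. The share was 12.9% of UMIs in library 2 and 13.3% in library 1 in stem-like cells, and 10.6% and 12.1% in cycling progenitor-like cells. It was 8.89% in library 2 and 10.3% in library 1 in goblet-like cells, and 6.07% and 7.05% in enterocyte-like cells. Paneth-like cells had the lowest, with 3.45% in library 2 and 4.33% in library 1. Enteroendocrine-like cells had 5.00% and 7.89%, tuft-like cells 7.08% and 7.26%, and lymphocyte-like cells 8.12% and 7.56%. By these summed shares, lymphocyte-like cells were above tuft-like cells in each library, and library 1 put enteroendocrine-like cells above both. The differences were smaller than the quartile range of single cells. By the median over cells, enteroendocrine-like cells were below both in each library, at 4.58% in library 2 and 5.46% in library 1. Those medians were 6.72% and 6.77% in tuft-like cells and 7.96% and 7.07% in lymphocyte-like cells. The marker genes themselves had medians of 4607.8 and 4700.5 UMIs per 10000 in Paneth-like cells. With mitochondrial and marker genes left out of the total, the enteroendocrine-like median was the lowest, at 5.40% in library 2 and 6.555% in library 1. The Paneth-like median was then 6.38% and 6.95%.

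**Figure D1:**
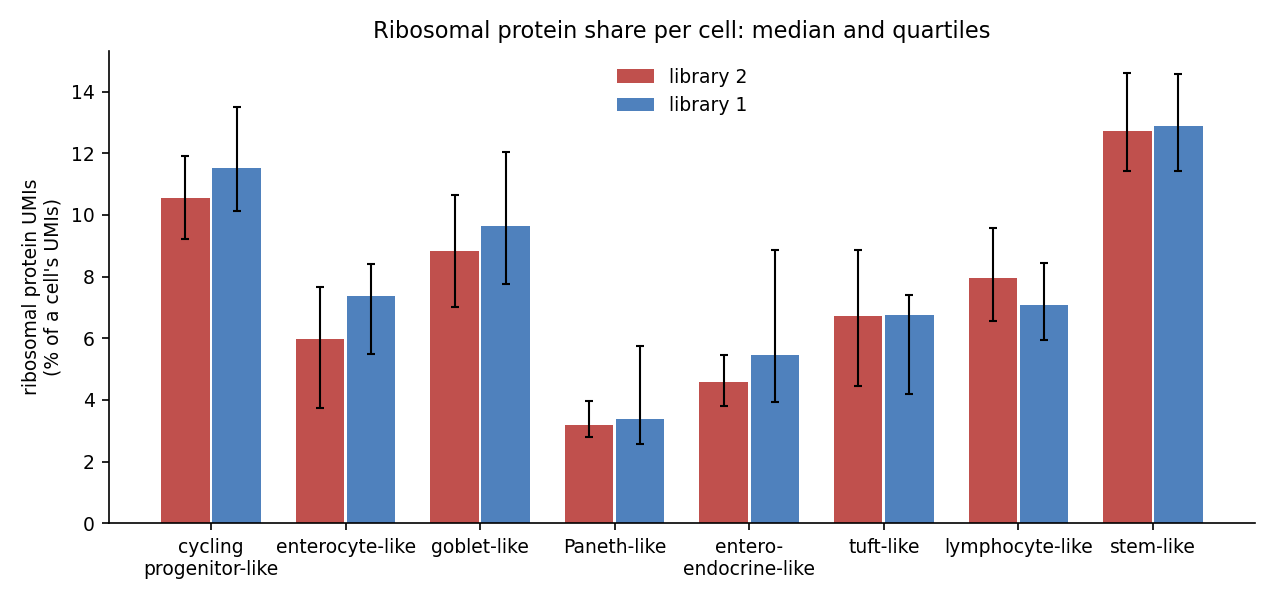
Ribosomal protein UMIs as a percentage of each cell's UMIs (vertical axis) in 8 marker-set classes (horizontal axis), library 2 in red and library 1 in blue; bars are medians over cells and lines run from the lower to the upper quartile. The stem-like medians, 12.7% in library 2 and 12.9% in library 1, were the highest, and the Paneth-like medians, 3.19% and 3.39%, the lowest. With mitochondrial and marker genes left out of the total, the enteroendocrine-like medians were the lowest, at 5.40% and 6.555%.

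The ratio of the summed ribosomal protein level in a class over stem-like cells was 0.823 in library 2 and 0.911 in library 1 for cycling progenitor-like cells. It was 0.690 and 0.774 for goblet-like cells, 0.471 and 0.530 for enterocyte-like cells, and 0.268 and 0.325 for Paneth-like cells. It was 0.388 in library 2 and 0.593 in library 1 for enteroendocrine-like cells, 0.550 and 0.545 for tuft-like cells, and 0.631 and 0.568 for lymphocyte-like cells. All 14 ratios lay below 1. Within the stem-like class, cells over a cell cycle gate had a share of 12.6% in library 2 and 13.0% in library 1, against 13.7% and 14.2% in those under both cycle gates.

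These levels are shares, so fewer molecules of these genes and more of others cannot be told apart. The median of all measured genes over stem-like cells was −1.61 in library 2 and −1.52 in library 1 (log2) in Paneth-like cells, −0.35 and −0.39 in enterocyte-like cells, −0.20 and −0.22 in goblet-like cells and −0.15 in lymphocyte-like cells of each library, and within 0.07 of 0 in the other 3 classes. Scaling by the median ratio of the genes that are no members, in place of total UMIs, takes that shift out. Only genes with UMIs in both cell groups compared entered this median ratio, so genes without UMIs in a shallow class were left out. The effect of that condition was not tested. The Paneth-like ratio then became 0.820 in library 2 and 0.940 in library 1, the goblet-like ratio 0.784 and 0.906, the lymphocyte-like ratio 0.689 and 0.625, and the enterocyte-like ratio 0.593 and 0.697. The enteroendocrine-like ratio, 0.387 and 0.594, and the tuft-like ratio, 0.555 and 0.541, were nearly the same as before.

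Gene by gene, a member was counted as different when its ratio was at least 1.5-fold the same way, with a 95% counting interval that excludes 1, in both libraries. In enterocyte-like cells 75 of 82 measured members were lower by that rule, against 38.8% of all measured genes. In Paneth-like cells 80 of 82 were lower, against 87.7% of all. In enteroendocrine-like cells 69 of 82 were lower, against 14% of all, and in tuft-like cells 67 of 82, against 9.68%. In lymphocyte-like cells 53 of 82 were lower, against 28.5%, and in goblet-like cells 6 of 82, against 22.3%. In cycling progenitor-like cells 0 of 83 were lower, against 8.31%. No member was higher by the rule in any class, while all genes gave shares from 1.94% in Paneth-like to 19.1% in lymphocyte-like cells. Over the 7 classes this makes 350 lower calls. A gene was measured with 100 UMIs in a class and stem-like cells together, and the background was not matched for counts. Tuft-like cells held 363567 UMIs in library 2 and 129202 in library 1, against 6619206 and 8508290 in stem-like cells. Genes with few UMIs in a class pass the interval rule less readily than well-counted members. The part of counting in these contrasts was not tested.

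With the median-of-ratios scaling there were 215 calls. In enterocyte-like cells 30 of 82 members were then lower, against 26.4% of all genes, and in lymphocyte-like cells 37 of 82, against 24.9%. In Paneth-like cells 7 of 82 were lower, against 9.07%, and Rpl36al, Rpl41 and Rps27l were higher. In goblet-like cells 1 of 82 was lower, against 14.6%, and Rpl36al was higher. The counts of 69 in enteroendocrine-like and 67 in tuft-like cells were the same under both scalings. For these classes no share of all genes is given under the median-of-ratios scaling, so their counts have no background there. The Paneth-like count of members was near the background under either scaling.

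**Figure D2:**
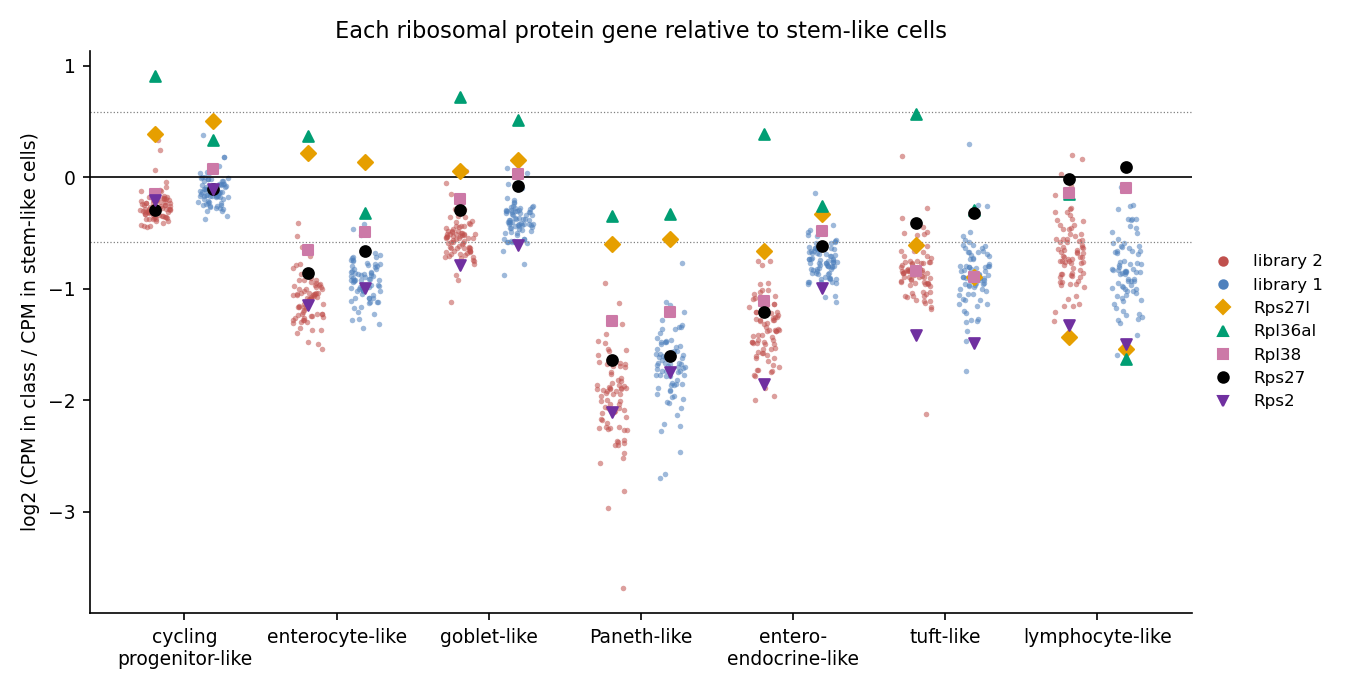
Log2 ratio of CPM in each class over CPM in stem-like cells (vertical axis) for every measured ribosomal protein gene; library 2 (red) stands left of library 1 (blue) in each class, symbols mark 5 named genes, and dotted lines mark 1.5-fold. Rps27l and Rpl36al stood above the other genes in enterocyte-like and Paneth-like cells, and Rps27 and Rpl38 stood near 0 in lymphocyte-like cells while Rps27l was at −1.43 and −1.54.

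The large and small subunits moved together. The summed level of the large-subunit genes over that of the small-subunit genes lay between 0.956 (tuft-like, library 1) and 1.07 (goblet-like, library 2) in all 16 combinations of class and library, and was 1.02 in stem-like cells of each library. Single proteins differed more than the subunits did. In enterocyte-like cells the log2 ratio of subunit genes over stem-like cells ran between −1.55 (Rpl12) and −0.63 (Rpl10) in library 2, and between −1.35 (Rpl10a) and −0.46 (Rpl10) in library 1.

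The lowest members in enterocyte-like cells were Rpl12, Rpl10a and Rpl3, all of the large subunit. Here and in the other classes, lowest and highest are by the interval bound nearest 1, which favours well-counted genes over those with few UMIs. Rpl12, which lies at the base of the P stalk, had 463 CPM in library 2 and 585 CPM in library 1, against 1350 and 1461 CPM in stem-like cells, ratios of 0.343 (95% interval 0.329 to 0.356) and 0.400 (0.386 to 0.415). Rpl3, which lies near the peptidyl transferase center, had 585 and 677 CPM, against 1633 and 1632 CPM in stem-like cells. Both genes, like Rpl10a, were at less than 0.42 of the stem-like level in each library. The least changed subunit genes were Rpl10, one of the last proteins to join the large subunit, at 419 CPM in library 2 and 476 CPM in library 1, against 647 and 655 CPM in stem-like cells, and Rpl38, at 658 and 731 CPM, against 1033 and 1029 CPM. Rpl10 has 11 near-identical genes, 1 of them in the matrix.

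The P stalk, which recruits translation factors, is made of Rplp0, Rplp1 and Rplp2. Rplp0 had 690 CPM in library 2 and 844 CPM in library 1 in enterocyte-like cells, against 1614 and 1681 CPM in stem-like cells. Rplp1 had 1907 and 2211 CPM, against 3938 and 4159 CPM, and Rplp2 had 933 and 1059 CPM, against 1875 and 1940 CPM. All 3 and Rpsa, the small-subunit protein also known as the laminin receptor, were lower by the 1.5-fold rule in enterocyte-, Paneth-, enteroendocrine- and tuft-like cells, and none of the 4 in cycling progenitor- or goblet-like cells. Rpl5 and Rpl11 join the 5S ribosomal RNA in a particle that can also bind Mdm2, the ubiquitin ligase of p53. Rpl5 had 751 CPM in library 2 and 882 CPM in library 1 in enterocyte-like cells, against 1847 and 1872 CPM in stem-like cells, and Rpl11 had 416 and 452 CPM, against 913 and 903 CPM. Both were lower by the rule in the same 4 classes as the stalk genes, and 1 of them in lymphocyte-like cells.

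Paneth cells fill their RNA with messages of antimicrobial granule proteins. Among the members in Paneth-like cells Rpl15 was the lowest by its interval, followed by Rps3a1 and Rps6. Rpl15 had 68.6 CPM in library 2 and 88.3 CPM in library 1, against 539 and 490 CPM in stem-like cells, log2 ratios of −2.97 and −2.47. Rps6, the small-subunit protein phosphorylated by S6 kinases, was at −2.82 and −2.28, and Rps3a1 at −2.56 and −2.22. Rpl41, in contrast, had 1441 CPM in library 2 and 1639 CPM in library 1, against 2774 and 2794 CPM in stem-like cells, log2 ratios of −0.94 and −0.77. Relative to the median of all genes in that class, Rpl15, Rps6 and Rps3a1 were lower and Rpl41 was higher in each library.

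By total UMIs the goblet-like ratio was the nearest to 1 after that of the cycling progenitors, and with median-of-ratios scaling the Paneth-like ratio was nearer in library 2 and library 1. Rpl41 was at its stem-like level, with 2811 CPM in library 2 and 2965 CPM in library 1, against 2774 and 2794 CPM, and so was Rpl10, with 623 and 672 CPM, against 647 and 655 CPM. The lowest were Rpl13a (log2 ratio −1.12 in library 2 and −0.88 in library 1), Rps2 (−0.78 and −0.61) and Rpl10a (−0.74 and −0.66). Rpl13a and Rps2 have near-identical genes, 45 of them for Rps2, the largest number of any member.

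Enteroendocrine-like cells were led downwards by Rps2, at 668 CPM in library 2 and 1323 CPM in library 1, against 2419 and 2638 CPM in stem-like cells. Rpl13 followed with log2 ratios of −1.77 in library 2 and −1.07 in library 1, and Rpsa with −1.75 and −1.06. In tuft-like cells Rps2 was at −1.42 and −1.49, Rps12 at −1.18 and −1.14 and Rpl12 at −1.13 and −1.38. Tuft-like cells of library 1 were 22 in number, and single genes there rest on few UMIs (8 for Rpl22l1). By the interval bound, Rps2 was thus among the 3 lowest members in goblet-, enteroendocrine-, tuft- and lymphocyte-like cells.

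Lymphocyte-like cells, defined by T cell and intraepithelial lymphocyte markers, showed another order of members. Rps27 had 2467 CPM in library 2 and 2810 CPM in library 1, against 2494 and 2640 CPM in stem-like cells, ratios of 0.989 (0.945 to 1.03) and 1.06 (1.02 to 1.11). Rps15a had 1859 and 1524 CPM, against 1665 and 1619 CPM. Rpl38 had 937 and 962 CPM, against 1033 and 1029 CPM. These 3 stood near the stem-like level although the members' median log2 ratio was −0.68 in library 2 and −0.85 in library 1. At the other end, Rpl10a had 185 and 152 CPM, against 453 and 478 CPM, and Rps2 had 967 and 931 CPM, against 2419 and 2638 CPM. The depth of these cells was low, with medians of 3238 UMIs in library 2 and 2438 in library 1.

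A series of absorptive cells was made of cells over no cell cycle gate and no other lineage gate, with fewer than 40 stem marker UMIs per 10000, ordered by their enterocyte markers. Along it the ribosomal protein share was lower at each step than at the one before, in both libraries. With 0 to 20 enterocyte marker UMIs per 10000 the share was 11.1% in library 2 (96 cells) and 12.1% in library 1 (106 cells). It was 10.5% and 11.7% at 20 to 50, 9.23% and 10.2% at 50 to 100, 7.57% and 8.40% at 100 to 200, and 5.01% and 5.81% at 200 to 400. Above 400 it was 2.80% in library 2 (104 cells) and 2.75% in library 1 (69 cells). Library 2 was below library 1 in each step but the last. Median depth was 4570 UMIs in library 2 and 8032 in library 1 in the first step and 13038 and 14210 in the last, and median mitochondrial shares ran between 8.66% and 13.1%, and their part in the series was not tested. Subunit genes with at least 2000 UMIs, 76 in all, had a median level in the last step of 0.241 of the first in library 2 and 0.220 in library 1. Their extremes in that step were Rps6 at 0.129 and Rpl23a at 0.562 in library 2, and Rpl13a at 0.112 and Rpl38 at 0.326 in library 1. The levels of Rpl23a and Rpl13a are uncertain, as said above. Rpl23a had only 2390 UMIs over all kept cells, and in library 2 it stood at 1.63 of its first step at 20 to 50. Its ratios in this series are therefore weakly counted.

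**Figure D3:**
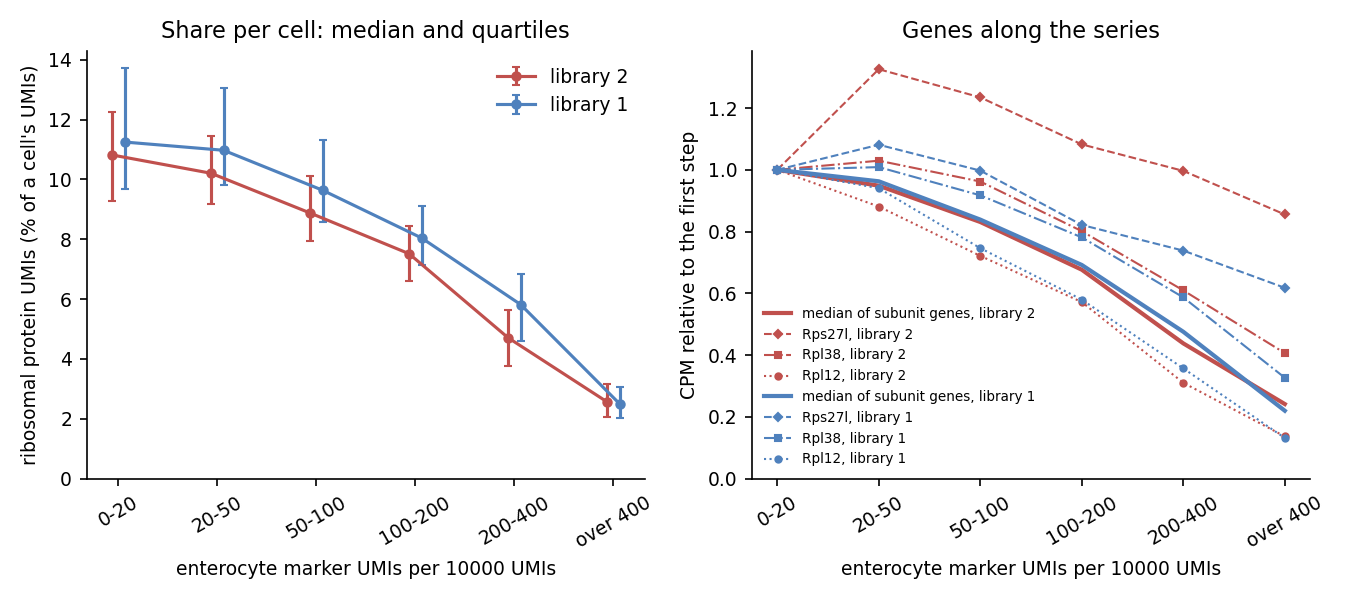
Left, ribosomal protein share per cell (median and quartiles) along 6 steps of enterocyte marker level, library 2 in red and library 1 in blue; right, CPM relative to the first step for the median of the subunit genes and for Rps27l, Rpl38 and Rpl12. The share declined along the steps in both libraries, and Rps27l ended at 0.855 of its first step in library 2 and 0.618 in library 1, above the subunit median of 0.241 and 0.220.

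Rps27l, a paralog of Rps27 a known p53 target in human cells, followed another course than the subunit genes. It had 349 CPM in library 2 and 324 CPM in library 1 in enterocyte-like cells, against 300 and 295 CPM in stem-like cells, ratios of 1.17 (1.10 to 1.24) and 1.10 (1.04 to 1.17). In cycling progenitor-like cells it had 393 and 417 CPM, and in goblet-like cells 311 and 328 CPM. In lymphocyte-like cells it had 111 CPM in library 2 and 100.4 CPM in library 1, log2 ratios over stem-like cells of −1.43 and −1.54. Its level in the first absorptive step was 343 CPM in library 2 and 417 CPM in library 1, and in the last 293 and 258 CPM. Rps27l (chr9:66944624-66949522) has no near-identical gene in the annotation, and Rps27 (chr3:90212667-90213648) has 5, of which Rps27rt is in the matrix.

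Set against its partner, which does not depend on the scaling of a class, Rps27l made up 10.7% of the UMIs of the pair in stem-like cells of library 2 and 10.0% in library 1. It made up 16.2% and 14.5% in cycling progenitor-like cells, 20.2% (95% exact binomial interval 19.5 to 20.9) and 16.3% (15.6 to 16.9) in enterocyte-like cells, and 19.8% and 18.8% in Paneth-like cells. It made up 4.29% (3.49 to 5.22) in library 2 and 3.45% (2.71 to 4.33) in library 1 in lymphocyte-like cells. Along the absorptive steps its share went up to 31.3% (28.9 to 33.9) in library 2 and 28.8% (25.8 to 32.0) in library 1 at the highest marker level. The pair thus shifted towards Rps27l in enterocyte- and Paneth-like cells and towards Rps27 in lymphocyte-like cells, in both libraries. No correction was made for RNA free in the suspension.

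Rpl22l1, a paralog of the large-subunit gene Rpl22, did not shift in that way. It made up 18.4% of the pair in stem-like cells of library 2 and 17.0% in library 1, 19.6% and 18.5% in enterocyte-like cells, and 17.6% and 18.5% in lymphocyte-like cells. It was lower in Paneth-like cells, at 13.7% (11.4 to 16.3) in library 2 and 11.2% (9.36 to 13.3) in library 1, and in tuft-like cells, at 9.31% (5.70 to 14.2) and 9.41% (4.15 to 17.7). Rpl36al, a paralog of the X-linked gene Rpl36a, made up 4.87% of its pair in enterocyte-like cells of library 2 and 2.88% in library 1, against 1.51% and 1.58% in stem-like cells. It had 27.52 and 18.98 CPM in enterocyte-like cells, against 21.3 and 23.7 CPM in stem-like cells, so its own level did not move the same way in the 2 libraries while Rpl36a was lower in both.

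**Figure D4:**
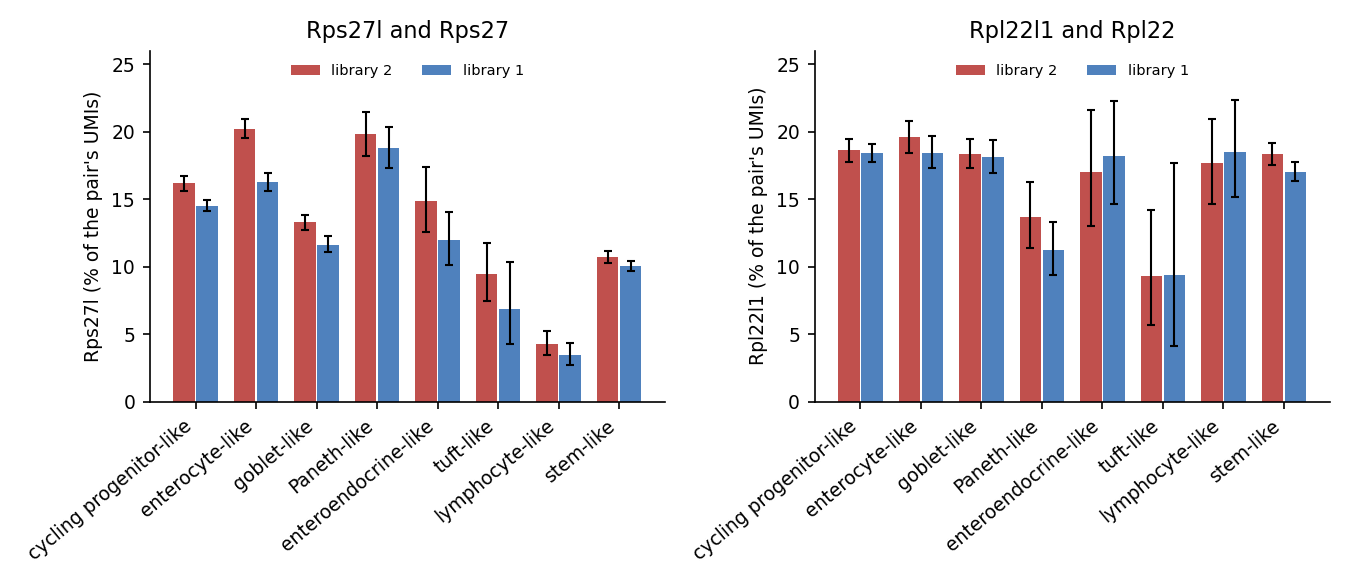
Share of a pair's UMIs held by the like-named paralog (vertical axis, percent) in 8 classes, for Rps27l with Rps27 (left) and Rpl22l1 with Rpl22 (right), library 2 in red and library 1 in blue; lines are 95% exact binomial intervals, covering counting error only. Rps27l held 20.2% and 16.3% in enterocyte-like cells and 4.29% and 3.45% in lymphocyte-like cells; Rpl22l1 was lowest in tuft-like and Paneth-like cells.

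Rps19bp1, which encodes a binding protein of Rps19, and Rpl7l1 are named for a subunit without being standard subunits. In enterocyte-like cells Rpl7l1 had 78.8 CPM in library 2 and 81.2 CPM in library 1, against 105 and 109 CPM in stem-like cells, and Rps19bp1 had 14.2 and 13.8 CPM, against 20.4 and 22.0 CPM. In cycling progenitor-like cells Rpl7l1 was above its stem-like level, with log2 ratios of 0.33 in library 2 and 0.18 in library 1, where the members' medians were −0.28 and −0.13. The last bases of Rpl7l1 match those of other genes, and its count is uncertain.

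Subunit genes that carry other symbols lie outside the rule. Rack1, a small-subunit protein that also binds protein kinase C, behaved like the members in enterocyte-like cells, with 760 CPM in library 2 and 818 CPM in library 1, against 1892 and 1786 CPM in stem-like cells. Fau, which encodes a small-subunit protein fused to a ubiquitin-like peptide, did not: it had 754 and 857 CPM in enterocyte-like cells, against 779 and 759 CPM in stem-like cells, log2 ratios of −0.05 and 0.17. That is above the highest subunit gene of the rule, Rpl10, in each library.

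Library 2 had a lower summed ribosomal protein level than library 1 in 7 of the 8 classes. The number was 5 of 8 with gates 2 times stricter, where the stem-like ratio was 1.0053 and the tuft-like ratio 1.0169. It was 6 of 8 with mitochondrial and marker genes left out of the total or with median-of-ratios scaling, where the tuft-like ratio was 1.0003 and 1.0006. The ratio of library 2 over library 1 was 0.967 (95% interval 0.964 to 0.970) in stem-like cells, 0.874 in cycling progenitor-like cells, 0.860 in enterocyte-like cells, 0.863 in goblet-like cells and 0.797 in Paneth-like cells. It was 0.634 (0.625 to 0.643) in enteroendocrine-like cells, 0.975 (0.952 to 0.998) in tuft-like cells and 1.07 (1.06 to 1.09) in lymphocyte-like cells. The stem-like ratio varied with the marker level. It was 1.001 in cells with at least 150 stem marker UMIs per 10000 and 0.946 in those with fewer. This split was chosen after seeing the data. Goblet-like cells split at 600 marker UMIs per 10000 gave 0.945 above and 0.853 below. Paneth-like cells split at 3000 gave 0.840 and 0.773, the second from 17 cells in each library. Enterocyte-like cells split at 200 gave 0.886 and 0.900. Whether the difference between the libraries comes from the treatment, the pooled animals or the preparation cannot be told apart.

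Between the libraries, a member counted as different at 1.5-fold with an interval excluding 1. In enteroendocrine-like cells 44 of 77 measured members were lower in library 2, against 6.64% of all measured genes, and in Paneth-like cells 3 of 78, against 6.39%. In stem-like cells 1 of 83 members was higher, against 1.83% of all, and in cycling progenitor-like cells 1 of 84, against 2.22%. Lower in library 2 were 0 members in both, against 0.958% and 1.36% of all. No member was higher in enteroendocrine-like (7.21% of all genes) or Paneth-like cells (4.33%). No member differed by the rule in enterocyte-like cells, against 3.58% of all genes higher and 1.49% lower, or in goblet-like cells, against 2.54% higher and 1.37% lower. None differed in tuft-like cells, against 4.5% higher and 3.58% lower, or in lymphocyte-like cells, against 7.3% higher and 6.4% lower. The enteroendocrine-like share of members is far above that of all genes, and the other shares are near or under theirs. Here too the background was not matched for counts, and the part of counting was not tested. With the size rule set to 1.2-fold, 192 of 638 pairs of a member and a class differed, against 16.9% over all genes.

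**Figure D5:**
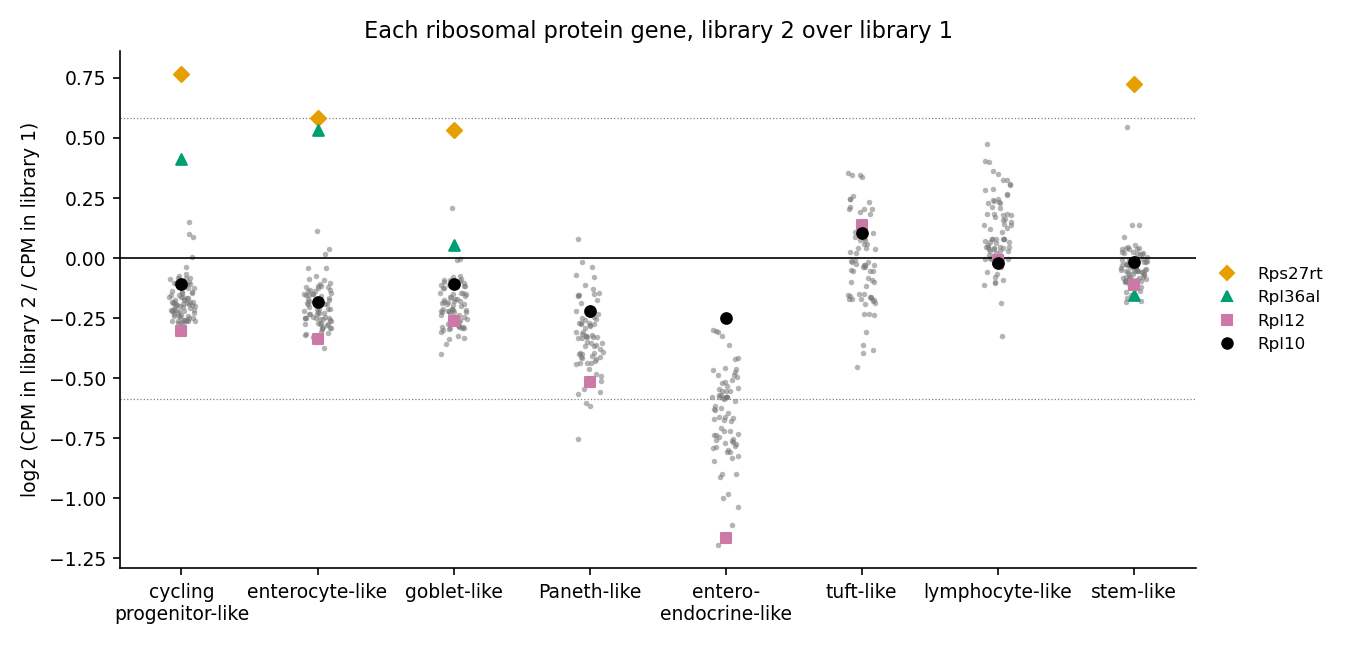
Log2 ratio of CPM in library 2 over library 1 (vertical axis) for every measured ribosomal protein gene in 8 classes; symbols mark 4 named genes and dotted lines mark 1.5-fold. The enteroendocrine-like genes lie lowest with a median of −0.63, the lymphocyte-like genes lie mostly above 0 with a median of 0.08, and Rps27rt is the highest gene in stem-like and cycling progenitor-like cells.

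The enteroendocrine-like difference varied with the marker level. These cells had a median of 729 enteroendocrine marker UMIs per 10000 in library 2 and 330 in library 1. In the cells with at least 300, of which library 2 had 65 and library 1 had 34, the ratio was 0.832 and 3 of 75 members were lower, against 4.39% of all genes. With fewer than 300, in 17 cells of library 2 and 30 of library 1, it was 0.578 and 58 of 75 members were lower, against 18.8%. This split was chosen after seeing the data. The median share per cell differed less than the summed share, with 4.58% in library 2 and 5.46% in library 1. The part that these values play in the difference was not tested. Rpl12 had the lowest bound, with 336 CPM in library 2 and 756 CPM in library 1 and a ratio of 0.445 (0.378 to 0.523), and Rpl36a and Rps2 followed at 0.462 and 0.505. Rpl10, at 384 and 456 CPM, Rpl27, at 298.9 and 368 CPM, and Rps27l, at 188 and 233 CPM, differed least.

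Rps27rt was the member higher in stem-like and in cycling progenitor-like cells. It had 53.2 CPM in library 2 and 32.2 CPM in library 1 in stem-like cells, a ratio of 1.65 (1.41 to 1.94), and 47.3 and 27.8 CPM in cycling progenitor-like cells, a ratio of 1.70 (1.45 to 1.99). In enterocyte-like cells it had 27.5 and 18.4 CPM and in goblet-like cells 39.8 and 27.5 CPM, also higher in library 2 but under the 1.5-fold rule. Its partner Rps27 had 2494 CPM in library 2 and 2640 CPM in library 1 in stem-like cells, so the pair went opposite ways. Reads of the near-identical copies may be assigned to either gene, and the level of Rps27rt is therefore uncertain.

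In the classes other than enteroendocrine-like, few members passed the 1.5-fold rule. In stem-like cells Rps9, with 2970 CPM in library 2 and 3333 CPM in library 1, and Rpl14, with 1200 and 1359 CPM, were among the lowest. Rpl15 was higher, with 539 and 490 CPM, and Rps10 had 9.97 and 6.82 CPM from 66 and 58 UMIs. In lymphocyte-like cells Rpsa had 1126 CPM in library 2 and 853 CPM in library 1, and Rpl27 had 527 and 397 CPM, while Rps27 had 2467 and 2810 CPM and Rpl14 had 517 and 648 CPM. In Paneth-like cells Rps4x, from the X chromosome, had 662 and 1014 CPM, a ratio of 0.653. In enterocyte-like cells Rpl9 and Rps3a1 were among the lowest, with ratios of 0.796 and 0.800. In goblet-like cells Rps28, Rpl34 and Rps16 were lowest, with ratios of 0.780, 0.791 and 0.795. In tuft-like cells Rpl4 had a ratio of 1.28 and Rps3 one of 0.760.

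Genes that build and use ribosomes were counted by the same rule. Of 26 ribosome biogenesis genes, 24 were lower in enterocyte-like than in stem-like cells, against 38.8% of all genes, with a median log2 ratio of −2.40 in library 2 and −2.28 in library 1, against medians of −1.07 and −0.92 for the ribosomal protein genes. Among them the nucleolar proteins Npm1 and Ncl had 328 and 263 CPM in library 2 and 431 and 286 CPM in library 1, against 2252 and 1767 CPM in library 2 and 2430 and 1818 CPM in library 1 in stem-like cells. Of 21 translation factors, 18 were lower, against the same 38.8%, including Eef1a1, which brings aminoacyl-tRNA to the ribosome, at 4001 CPM in library 2 and 4759 CPM in library 1, against 8621 and 8785 CPM. Eef2, the translocation factor, had log2 ratios of −0.61 and −0.59. Of 15 genes of the mTORC1 list, 9 were lower, also against 38.8%. Myc, a transcription factor that activates ribosome genes, had 6.28 and 5.85 CPM, against 159 and 143 CPM, and Larp1 had 133 and 128 CPM, against 296 and 290 CPM.

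Mitochondrial ribosomal protein genes, which serve the ribosome of the mitochondrion, were counted in the same way. In cycling progenitor-like cells 6 of 75 were higher than in stem-like cells by the rule and none lower, against 5.49% of all genes higher, a share near the background. Their median log2 ratios were 0.33 in library 2 and 0.36 in library 1, and those of the cytosolic genes −0.28 and −0.13. In enterocyte-like cells 2 of 75 were higher and 10 lower, against 17.7% of all genes higher and 38.8% lower. Their summed level was 7448 CPM in library 2 and 7476 CPM in library 1 in cycling progenitor-like cells, against 5933 and 5837 CPM in stem-like cells.

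Between the libraries, stem-like cells showed none of the 26 biogenesis genes, 21 translation factors, 75 mitochondrial ribosomal protein genes or 15 mTORC1 genes as different by the rule, against 1.83% of all genes higher and 0.958% lower, shares at which lists of this size would hold few calls. Their medians were −0.02, −0.03, 0.03 and 0.01. Of 7 measured p53 response genes none differed, with Cdkn1a, the cell cycle inhibitor p21, at 17.1 CPM in library 2 and 24.6 CPM in library 1. Of 5 integrated stress response genes 1 was lower, Ppp1r15a, a subunit that directs a phosphatase to eIF2α, with 15.7 CPM in library 2 and 36.8 CPM in library 1. Atf4, the transcription factor of that response, had 208 and 248 CPM.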

How the data were processed

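The authors deposited raw UMI counts per gene and barcode in 1 matrix, with no normalization, per the file headers. The submitters' processing notes name Cell Ranger 2.1.1 and mm10, without saying how cells were called from barcodes. The counts of kept cells were summed per library and class with Python 3.11.15, numpy 2.4.6, pandas 2.3.3 and scipy 1.17.1, and plotted with matplotlib 3.10.9. Classes were set by marker gates in UMIs per 10000, chosen after seeing the marker levels: 80 for stem, 100 for enterocyte, 200 for goblet, 1000 for Paneth, 50 for enteroendocrine, 30 for tuft and 100 for lymphocyte markers, and 15 for S phase or 25 for G2M markers. No doublet caller was run; cells over more than 1 lineage gate were set aside. Genes needed at least 100 UMIs in a comparison. CPM ratios carry exact 95% conditional intervals for counting error only, and log2 ratios add 0.5 to each count. The interval and the size rule were run on stem-like counts simulated with counting error only, the model that the interval assumes. That simulation cannot show how they perform when cells or animals vary.

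The members and gene lists were chosen with earlier results of these data known. Genes were named by rule: the 5 highest and 5 lowest members by UMIs; in each comparison the 3 highest and 3 lowest members by the interval bound nearest 1; all of the P stalk, 5S particle, paralog and other-symbol lists; up to 3 genes of each other list; and Eef1a1, Eef2, Npm1, Ncl, Myc and Larp1. Rpl10, Rpl38, Rpl41, Rps27, Rps15a, Rpl13a, Rpl23a and Rpl22l1 in comparisons where the rule does not name them, and the paralog pairs, were picked after their values were seen. Gene positions and promoters are from RefSeq GRCm38.p6, and near-identical genes from GENCODE M21 transcripts. A few genes that these rules name are not reported here.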

Additional observations from a re-analysis of the deposited data

Results flagged for a closer look

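The summed ribosomal protein level was higher in library 2 than in library 1 in lymphocyte-like cells, with a ratio of 1.07, whereas the ratio and its interval were under 1 in the other 7 classes. That number was 5 with gates 2 times stricter, and 6 with mitochondrial and marker genes left out of the total or with median-of-ratios scaling; the ratio in lymphocyte-like cells was between 1.06 and 1.11 in every setting run on all classes. The difference between the classes was not tested, since each library is 1 pool. The lymphocyte-like cells had median depths of 3238 UMIs in library 2 and 2438 in library 1.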

How the results depend on the processing

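All 14 ratios of a class over stem-like cells lay below 1 under each of the 6 alternatives run on them, while the library 2 over library 1 ratios below 1, 7 of 8, were 5 with gates 2 times stricter and 6 with the other denominator or scaling. The library 2 over library 1 ratio in stem-like cells (0.967) was 0.938 with no cell filter, 0.971 at 15% mitochondrial UMIs, 1.01 with gates 2 times stricter and 0.979 after thinning to 2000 UMIs per cell (483 shallower cells in library 2 and 781 in library 1 dropped). Chosen after seeing the data, a split at 150 stem marker UMIs per 10000 gave 1.001 above and 0.946 below. Stem-like shares in libraries 2 and 1 were 12.2% and 13.0% with no filter, 12.9% and 13.3% at 15%, 13.1% and 13.0% with stricter gates, 13.1% and 13.3% thinned, and 14.8% and 15.2% without mitochondrial and marker genes in the total. The enterocyte-like ratio in libraries 2 and 1 was 0.448 and 0.486, 0.490 and 0.543, 0.305 and 0.346, 0.446 and 0.517, and 0.483 and 0.549 under these 5 settings, and 0.593 and 0.697 with median-of-ratios scaling. Members different between libraries, 49 over all classes, were 23 when thinned and 192 at 1.2-fold; those different from stem-like cells, 350, were 215 with median-of-ratios scaling, added after seeing the data. The cause of these moves was not tested. No paired analysis was possible because each group is 1 library. Depth limits tuft-like and enteroendocrine-like cells most, where single members rest on few UMIs.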
